A study of Mus musculus with 2 samples.

Results

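AC140207.2, 1700029M20Rik, Gm5878, CT025671.4, D130017N08Rik, Gm2762 and Gm42811 are 7 mouse genes with no annotated protein, and many small RNAs of piRNA size came from their loci in testis. They were picked by name, with their read numbers in these data already known, as precursors of middling output below the largest noncoding ones, Gm49794, Gm21269 and 1700001L05Rik. Their reads are therefore given as a description, with no test. They are 7 of the 55450 genes annotated in GENCODE M21 and 7 of the 4552 genes that had at least 200 reads of 24 to 32 nt in the tables together. Among the 618 long noncoding genes past that minimum they held ranks 6, 8, 9, 11, 12, 13 and 14 by reads, while ranks 7 and 10 were Gm42418 and AY036118, which are not on the list.

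The study sequenced small RNA of testes from mice with a mutated Stambp-ps1, a pseudogene of the deubiquitinase gene Stambp. By the labels there was 1 Stambp-ps1-/- and 1 Stambp-ps1+/- sample, both taken 23 days after birth (23 dpp) and on the C57BL/6 background, so the comparison sample also carries a mutant allele. Nothing used here says how the allele was made or how many animals gave RNA. The deposited record lists 2 tables of read sequences with their counts, both under the Stambp-ps1-/- sample, although 1 has KO and the other has het in its name. By these words they are called KO table and het table here, and neither was assigned to a genotype. With 1 library per table there was no replicate error and no test between tables. All intervals are exact 95% binomial intervals, which cover counting error only, and reads amplified by PCR with no molecular identifier do not each stand for a separate molecule. In rank by reads, the long noncoding gene next above the 7, Gm10619, had 164960 reads in the KO and 165569 in the het table, against 101873 and 107459 for AC140207.2. At the lower end Gm42811 had 63830 and 66158 reads, and the next gene, Gm30132, had 62351 and 61436.

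The KO table held 54384974 reads and the het table held 62773871 reads, all of 18 to 32 nt. Reads of 24 to 32 nt numbered 43173943 in the KO and 47015300 in the het table, of which 17.0% and 16.1% matched an annotated transcript exactly. The RefSeq pseudogene Stambp-ps1 is Gm18009 in GENCODE, and it had 25 reads in the KO and 2700 in the het table (0.460 and 43.0 RPM, reads per 1000000 reads of the table). All 8 miRNAs listed as testis germ cell markers had reads, in sum 23433 RPM in the KO and 21127 in the het table. The 2 markers of Sertoli and somatic testis cells summed to 19795 and 15818 RPM, the 3 of blood to 63.7 and 43.1, the 2 of muscle to 10.8 and 6.54, and the 1 of liver had no read in either table. A count of 0 allows up to 0.0552 RPM in the KO and 0.0478 RPM in the het table, the level of 3 reads. In whole testis, fewer cells of a type and less RNA per cell cannot be told apart.

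piRNAs are germ line small RNAs that guide PIWI proteins to complementary transcripts. In mouse spermatocytes at the pachytene stage, long single-stranded RNAs from noncoding loci, and also some mRNAs, are cut into piRNAs along their length, which are bound by MILI and, when longer, by MIWI. The ends carry marks of this route. The first base is mostly U, and the 3′ end is trimmed and then methylated by HENMT1. Where transcripts of both strands are cut in turn, in what is called the ping-pong cycle, partners overlap by 10 nt from their 5′ ends, and the partner of a piRNA with a first U has A at position 10.

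The most abundant read of each locus shows what these small RNAs look like. Capitals mark the first base, and the base at position 10 where it is A. The reads are written 5′ to 3′ as in the deposited tables, with T for U, and each has 1 place among the annotated transcripts. No sequence is shown for AC140207.2.
1700029M20Rik: Tgccctgagcatgttgatctctttgtgccc
Gm5878: TagaagacgAgtttggactgagcgaaattc
CT025671.4: Tacatacctggtagcactgaattggacc
D130017N08Rik: TaatgttgaAggaccaggaaatatgaatct
Gm2762: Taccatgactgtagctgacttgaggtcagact
Gm42811: TaacagaccAatgaggacatgtggcttct
In GRCm38 coordinates they lie at chr4:135629235-135629264 (plus strand), chr6:85112878-85112907 (minus), chr17:66196087-66196114 (minus), chr5:143758428-143758457 (plus), chr13:53402624-53402655 (plus) and chr6:127809453-127809481 (plus), in the order of the lines. All 6 begin with U and are 28 to 32 nt long, and 3 of them, those of Gm5878, D130017N08Rik and Gm42811, have A at position 10. For CT025671.4 and Gm42811 the read runs against the annotated strand of the gene. The read of 1700029M20Rik was the most abundant of the 6, with 8727 reads in the KO and 9485 in the het table. That of Gm42811 was the least abundant, with 1750 and 1642 reads.

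1700029M20Rik was the locus with the lowest effective number of starts (reads as concentrated as over 23.9 equally used positions). Its next 3 most abundant reads that start at other positions are shown too, numbered by the abundance of the single read. Capitals again mark the first base and an A in position 10.
1700029M20Rik, start 2: Tagctttgagcatcgctgtctactcgtcct
1700029M20Rik, start 3: TgactcaagAattatcggccaacatgt
1700029M20Rik, start 4: TatctgaagAgttgagtatatgtggggccc
They start in the same last exon, at chr4:135627824-135627853, chr4:135629837-135629863 and chr4:135628021-135628050 on the plus strand. The read of start 2 had 4915 reads in the KO and 5933 in the het table, that of start 3 had 2309 and 2025, and that of start 4 had 981 and 1663. The log2 ratios of these single sequences were -0.06, 0.40 and -0.55, so forms of 1 locus differed in the direction of the ratio while the locus as a whole was at 0.13.

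The loci lie apart from each other on 6 chromosomes, 2 of them on chromosome 6. All are lincRNA genes except Gm42811, which has the provisional class TEC. AC140207.2 (ENSMUSG00000117815.1) is a single exon of 17803 nt at chr18:67066578-67084380 on the plus strand. 1700029M20Rik (ENSMUSG00000086788.2) has 3024 nt of exon in 3 blocks at chr4:135626655-135630198 on the plus strand. Gm5878 (ENSMUSG00000072952.7) has 3 exons of 4674 nt in all at chr6:85111416-85126125 on the minus strand. The processed pseudogene Gm43959, on the other strand at chr6:85111693-85112269, lies within its last exon, and all reads matched there, 17219 in the KO and 15932 in the het table, ran on the strand of Gm5878. CT025671.4 (ENSMUSG00000117296.1) has 2 exons of 3450 nt at chr17:66193352-66199820 on the plus strand. D130017N08Rik (ENSMUSG00000097287.3) has 5129 nt in 4 blocks at chr5:143758354-143768575 on the plus strand. Gm2762 (ENSMUSG00000107008.3) spreads 5476 nt over 11 blocks at chr13:53393657-53455630 on the plus strand, and the lincRNA gene Gm43262, with 96 KO and 95 het reads, lies within this span on the other strand at chr13:53403950-53414830. Gm42811 (ENSMUSG00000106862.1) is 1 exon of 2768 nt at chr6:127807951-127810718 on the minus strand. None had another annotated gene start on the opposite strand within 1 kb of its own annotated start, the arrangement of a divergent promoter. For CT025671.4 and Gm42811 this does not cover the RNA read from the other strand, whose start is not known.

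Together the 7 loci gave 10971 RPM in the KO and 9621 RPM in the het table. This was 1.38% of all 24 to 32 nt reads of the KO and 1.28% of those of the het table, and 8.15% and 7.98% of the reads that matched a transcript. Levels of single loci spread over a narrow range. AC140207.2 had 1873 RPM (1862 to 1885) in the KO and 1712 (1702 to 1722) in the het table. 1700029M20Rik had 1775 (1764 to 1787) and 1618 (1608 to 1628). These were the top levels in the het table, while in the KO table Gm5878 came between them, at 1828 RPM (1817 to 1840) there against 1455 (1445 to 1464) in the het table. CT025671.4 had 1441 RPM (1431 to 1452) in the KO and 1324 (1315 to 1333) in the het table. D130017N08Rik had 1465 (1455 to 1475) and 1268 (1260 to 1277). The order of this pair thus differed between the tables. Gm2762 followed with 1414 (1404 to 1424) and 1190 (1182 to 1199), and Gm42811 was lowest in both tables with 1174 (1165 to 1183) and 1054 (1046 to 1062). The reads of all but AC140207.2 had 1 place in 98.6 to 100% of cases, and those of AC140207.2 in 92.8%.

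**Figure D1:**
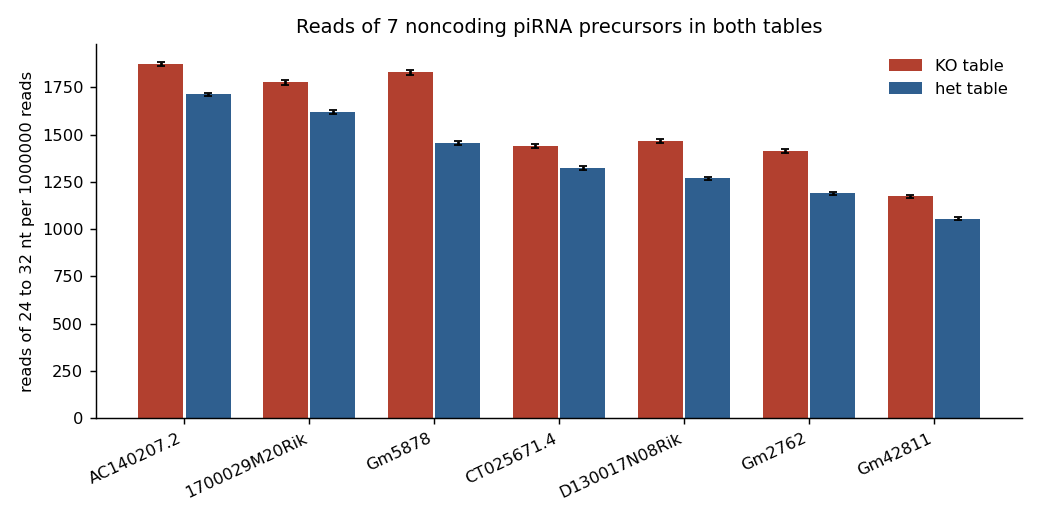
Reads of 24 to 32 nt per 1000000 reads of the table at each of the 7 precursors, with red bars for the KO and blue bars for the het table and error bars for the exact 95% interval of counting. Each red bar stands above its blue bar, from 1174 to 1873 RPM against 1054 to 1712 RPM, but scaled to miRNA reads the red bar would be the lower one for 5 of 7.

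Per kilobase of annotated exon the order changed. At CT025671.4 and Gm42811 nearly all reads ran against the annotated strand, so the length of the RNA that gave them is not known. 1700029M20Rik was the densest source, with 587 RPM per kb in the KO and 535 in the het table. Gm42811, the lowest by reads, came second with 424 RPM per kb in the KO table, and it was close to CT025671.4, with 418. In the het table CT025671.4, at 384 RPM per kb, and Gm42811, at 381, stood in the other order. Gm5878 had 391 and 311 RPM per kb, D130017N08Rik 286 and 247, and Gm2762 258 and 217. AC140207.2, with most reads, was the thinnest over its long exon, at 105 and 96.2 RPM per kb. For the largest precursor, Gm49794, the density was 866 RPM per kb in the KO table.

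All 7 loci had more RPM in the KO table, which 86.5% of the 4552 genes had too, and with miRNA reads in place of all reads as the total the direction turned for 5 of the 7. Log2 ratios of the KO over the het table were lowest for CT025671.4 (0.12, interval 0.11 to 0.14), AC140207.2 (0.13, 0.12 to 0.14) and 1700029M20Rik (0.13, 0.12 to 0.15). Gm42811 was at 0.16 (0.14 to 0.17) and D130017N08Rik at 0.21 (0.19 to 0.22). The highest were Gm2762 at 0.25 (0.23 to 0.26) and Gm5878 at 0.33 (0.32 to 0.34). As a plain ratio, Gm5878 was 1.26-fold higher in the KO table and CT025671.4 1.09-fold. None of the 7 reached a log2 ratio of 1 in size, which 0.351% of genes did (0.022% higher and 0.33% lower in the KO table, 1 and 15 genes). With a minimum of 50 reads the balance turned, with 43 genes higher and 30 lower. The median of the 7 was 0.16, beside 0.20 for all 4552 genes and 0.17 for the 618 long noncoding ones. All 7 lay between the lower and the upper 5% tail of all genes, which begin at -0.13 and 0.50.

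With miRNA reads as the total every log2 ratio was 0.25 lower, which put the median of all genes at -0.05 and that of the 7 loci at -0.09. Read against the median of all genes, a comparison that no scaling changes, Gm5878 and Gm2762 lay above it and 4 loci below. D130017N08Rik lay at the median, which its interval holds, and its side turned with the genes compared, since the median was 0.23 over genes with at least 1000 reads and 0.24 with reads of 1 place alone, where this locus was again at 0.21. The larger precursors were at 0.25 for Gm49794 and 0.20 for both Gm21269 and 1700001L05Rik. Of the other piRNA sources on the list, the pseudogene Gm18609 (0.26) and the coding gene Nemp1 (0.23), for a nuclear envelope protein, lay above the median of all genes. The coding genes Wdfy3 (-0.15) and Smyd5 (-0.28) lay below it. The side of Nemp1, at 0.227, also turned with the genes compared, since the median was 0.231 over genes with at least 1000 reads. Smyd5, which encodes a methyltransferase, gave 2.11% sense reads. The intervals of the ratios of Gm5878 and CT025671.4 do not overlap, but they hold counting error alone, and whether these loci differ beyond the spread between animals was not tested. The summed miRNA markers of each listed cell type with reads were also higher in the KO table when scaled to all reads, and their part in the ratios was not tested.

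**Figure D2:**
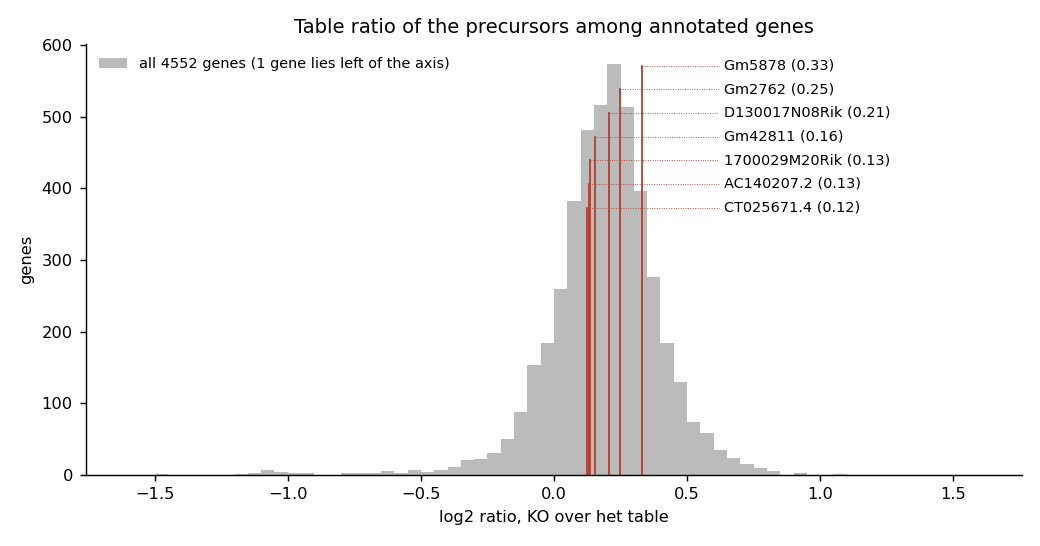
Histogram of the log2 ratio of the KO over the het table for the 4552 genes with at least 200 reads, with red lines at the 7 precursors. The lines stand between 0.12 and 0.33, around the median of all genes at 0.20, and scaling to miRNA reads would move the whole picture left by 0.25.

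Within a locus the ratio varied along the exons, at several loci over a wider range than the 0.12 to 0.33 found between loci. Exons were cut into 10 equal parts, and parts with at least 200 reads were compared. Log2 ratios lay between 0.08 and 0.17 over the 10 parts of AC140207.2, between 0.18 and 0.41 in Gm5878 and between 0.07 and 0.27 in Gm42811. They lay between 0.12 and 0.39 in 7 parts of Gm2762 and between 0.08 and 0.35 in 9 parts of D130017N08Rik. Only 1700029M20Rik and CT025671.4 held parts on both sides of 0, with -0.09 to 0.28 and -0.01 to 0.39. In 1700029M20Rik the parts below 0 were the first 2, at -0.06 and -0.09, and by exon the first was at -0.08 and the last at 0.17. Among single start positions with at least 200 reads, 0 of 154 in AC140207.2, 0 of 128 in 1700029M20Rik, 0 of 106 in Gm5878 and 0 of 105 in Gm42811 reached a log2 ratio of 1 in size. In CT025671.4 there was 1 of 115, in D130017N08Rik 2 of 126 and in Gm2762 2 of 114. The single position furthest from 0 was one of D130017N08Rik at 1.32, and the lowest was one of 1700029M20Rik at -0.79.

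Reads were shared by the tables to a larger extent than kinds of sequence were. On the strand with most reads, the distinct sequences found in both ranged from 6726 of 15219 at AC140207.2 to 3003 of 5518 at 1700029M20Rik. Sequences found in both held 95.1% of the KO and 94.5% of the het reads of AC140207.2, and 97.5 to 98.3% and 97.3 to 98.2% of those of the other 6 loci. Over starts with at least 10 reads, log2 reads of the tables correlated with Pearson's r of 0.93 in AC140207.2 (1475 starts) and up to 0.96 in D130017N08Rik (634 starts). These starts share their library and their transcript and are not replicates.

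The libraries were directional per the labels, and the strand of the reads went against the annotation at 2 of the 7 loci. Reads ran on the annotated strand in 99.98% or more of cases at 1700029M20Rik, Gm5878, D130017N08Rik and Gm2762. At AC140207.2 the sense share was 95.4% in the KO and 95.05% in the het table. At CT025671.4 it was 0.204% (0.174 to 0.238) and 0.196% (0.167 to 0.228), and at Gm42811 0.425% (0.376 to 0.478) and 0.585% (0.528 to 0.646). Nearly all reads of these 2 loci thus ran opposite to the annotated transcript, on a strand where no gene is annotated. Of the 7 loci 5 had at least 90% sense reads, as 67.3% of all genes did. The share and the direction were nearly alike in both tables, so the main strand of a locus is used in what follows, the antisense one for CT025671.4 and Gm42811.

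The first base was U in most reads of every locus and to nearly the same extent in both tables. The share was highest at 1700029M20Rik, with 91.4% (91.3 to 91.6) in the KO and 91.3% (91.1 to 91.4) in the het table. It was lowest at AC140207.2, with 86.9% (86.7 to 87.2) and 86.6% (86.4 to 86.8). In between were Gm2762 with 90.3% and 89.8%, Gm5878 with 89.6% and 89.5%, CT025671.4 with 89.4% and 89.2%, D130017N08Rik with 88.5% and 88.0%, and Gm42811 with 87.7% and 87.2%. For comparison, U makes up 24.6 to 28.8% of the bases of these transcripts. All 7 had a first-U share of at least 80%, as 51.2% of all genes did, and the median of all genes was 80.3%. In all reads of 24 to 32 nt, matched or not, it was 78.8% in the KO and 73.6% in the het table.

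A U was a preferred start rather than a required one. With the tables summed, 53.9% of the U positions of Gm2762 to 80.9% of those of CT025671.4 had at least 1 read starting there. Of positions with another base, 21.1% in AC140207.2 to 44.6% in CT025671.4 had one. Counted as distinct sequences and not as reads, the median first-U share of the 7 loci was 58.9% in place of 89.3%, so reads with another first base were many in kind but few in number.

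The base just before the U was seldom G. G came before 6.62% of reads with a first U at AC140207.2, while it comes before 18.5% of all U positions there. At 1700029M20Rik the shares were 2.17% of reads and 19.8% of positions, at Gm5878 8.71% and 22.7%, and at CT025671.4 9.65% and 22.8%. At D130017N08Rik they were 4.82% and 21.02%, and at Gm42811 7.07% and 21.9%. The gap was smallest at Gm2762, with 15.2% of reads and 20.9% of positions. In place of G, A came before 29.8 to 38.5% of these reads at the 7 loci, against 17.6 to 23.6% of U positions. The lower share of G also held when each start with at least 20 reads counted once, with 10.2 to 15.7% of such starts after G. The larger precursors had 8.70% (Gm49794), 12.2% (Gm21269) and 6.85% (1700001L05Rik) of reads after G.

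The share of reads with A at position 10 spread more widely over the loci than the first-U share did. With the tables summed it was found in 37.7% of reads at D130017N08Rik, 37.1% at AC140207.2, 36.1% at Gm5878, 33.1% at 1700029M20Rik, 29.7% at CT025671.4, 24.8% at Gm42811 and 23.1% at Gm2762. A makes up 22.8 to 28.3% of the bases of these transcripts. This order rests in part on single starts. Without the most used start of each locus, 1700029M20Rik came highest with 38.7%, next to AC140207.2 with 38.5%, while Gm5878 had 27.5%, D130017N08Rik 33.1%, CT025671.4 33.3%, Gm2762 24.7% and Gm42811 21.3%. The tables were close, with the widest gap at Gm5878, where the share was 36.9% in the KO and 35.2% in the het table. Among reads that did not begin with U, the share was higher at 6 of the 7 loci, up to 56.9% at AC140207.2, and lower at Gm42811, with 18.1% against 25.7% of the reads with a first U. Over all genes the median was 32.5%.

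Read lengths peaked at 30 nt at all 7 loci in both tables. The peak was sharpest at Gm5878, where 36.7% of reads were of 30 nt in the KO and 35.6% in the het table, and 29 to 31 nt made up 68.7% of the summed reads. The share of 29 to 31 nt was 56.8% at AC140207.2, 55.7% at 1700029M20Rik, 53.4% at Gm42811, 52.9% at D130017N08Rik and 51.01% at CT025671.4. Gm2762 had the broadest profile, with 45.6%, and a second peak at 27 nt with 15.9% of reads. Smaller peaks at 27 nt also stood at D130017N08Rik, with 15.6%, and at AC140207.2, with 13.5%. Lengths of 29 to 31 nt are those mostly bound by MIWI and lengths of 26 to 28 nt those mostly bound by MILI, but the protein bound was not measured here.

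Mean lengths were 28.4 nt at Gm2762, 28.5 at 1700029M20Rik, 28.6 at CT025671.4, 28.7 at AC140207.2, D130017N08Rik and Gm42811, and 29.1 at Gm5878, beside a median of 27.8 nt over all genes. Of the larger precursors, Gm49794 peaked at 27 nt, with 50.3% of its reads in the KO table at 26 to 28 nt, and Gm21269 and 1700001L05Rik peaked at 30 nt. Among 1096 other genes with at least 1000 reads, the one most like Gm2762 in length profile was Gm21269, at 7.04% of reads that would have to change length to make the profiles equal. The nearest to the others were Gm13301 for AC140207.2 (4.28%), Rad51d for 1700029M20Rik (5.08%), Gm20631 for Gm5878 (4.89%), Tspyl5 for CT025671.4 (4.22%), Ubn2 for D130017N08Rik (3.39%) and Gm8700 for Gm42811 (4.86%). The median gene was 23.5 to 32.8% away.

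**Figure D3:**
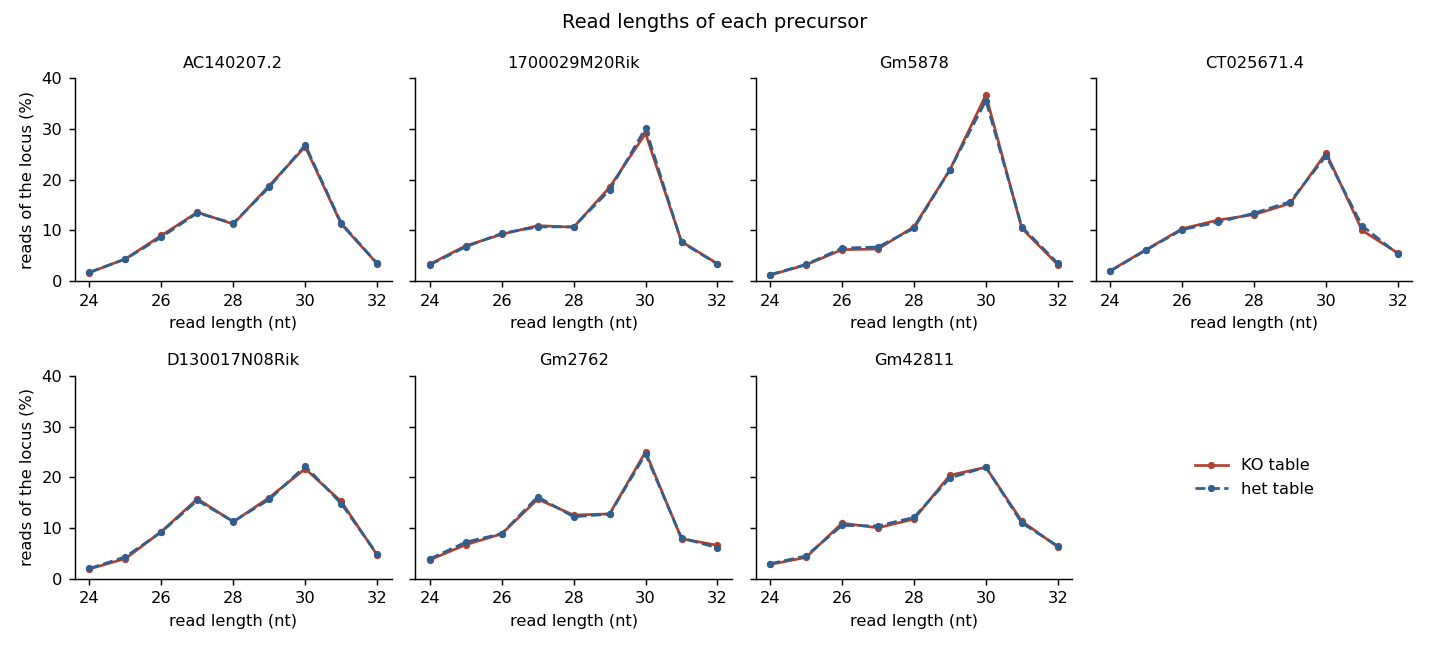
Share of the reads of each of the 7 precursors at each read length from 24 to 32 nt, in percent, with a solid red line for the KO and a dashed blue line for the het table. The lines lie almost on each other and peak at 30 nt in every panel, highest at Gm5878 and with a second peak at 27 nt at Gm2762, D130017N08Rik and AC140207.2.

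The upper limit of 32 nt in the tables fell within the profiles. Reads of 32 nt made up 3.37% of the summed reads of Gm5878 to 6.38% of those of Gm42811, so longer reads may have been left out, which was not analysed here. At the lower end reads of 23 nt were fewer than those of 24 nt at every locus, for example 964 against 1725 in the KO and 1069 against 1870 in the het table at AC140207.2. From a start with at least 20 reads came 6.13 (AC140207.2) to 6.66 (1700029M20Rik) different lengths on average, so a start commonly gave a ladder of 3′ ends.

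Starts were concentrated at few positions. The effective number of starts, 1 over the sum of squared shares, is the number of equally used positions that would give the same concentration. It was 23.9 at 1700029M20Rik, 32.6 at Gm5878, 41.8 at CT025671.4, 59.4 at D130017N08Rik, 61.3 at Gm2762, 64.7 at Gm42811 and 115 at AC140207.2. The top 10 starts held 48.5% of reads at 1700029M20Rik and 23.6% at AC140207.2, and between 32.95 and 43.4% at the other 5 loci. The single most used start held 14.4% of the reads of 1700029M20Rik, 11.8% at Gm5878, 10.9% at CT025671.4, 6.85% at D130017N08Rik, 6.47% at Gm2762, 4.39% at Gm42811 and 3.82% at AC140207.2. The reads of the most used start at 1700029M20Rik include the first of the sequences printed above. Of the larger precursors, 1700001L05Rik had an effective number of 38.7, Gm21269 of 62.2 and Gm49794 of 63.6, all within the range of the 7. The order changed when the number was divided by annotated exon length. Per kilobase it was 6.33 at 1700001L05Rik, 4.99 at Gm21269 and 4.88 at Gm49794. These values lay below those of all 7 loci, which ran from 6.48 at AC140207.2 to 23.4 at Gm42811. The value of 1700029M20Rik, 7.91, was above those of AC140207.2 and Gm5878 (6.98). At CT025671.4 and Gm42811 the length of the RNA read is not known.

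In number, starts were many. AC140207.2 had 5585 used positions and 1700029M20Rik 1571, or 31.4% and 52.0% of their exon bases. At an equal number of 129329 reads per locus, 4656 starts would be expected at AC140207.2 and 1419 (1700029M20Rik) to 1748 (CT025671.4) at the others, which puts Gm42811, at 1457, next to the lowest, where by effective number it was next to the highest. Per kilobase of annotated exon, Gm42811 came highest with 526 and AC140207.2 lowest with 262, though the length of the RNA read at Gm42811 is not known.

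**Figure D4:**
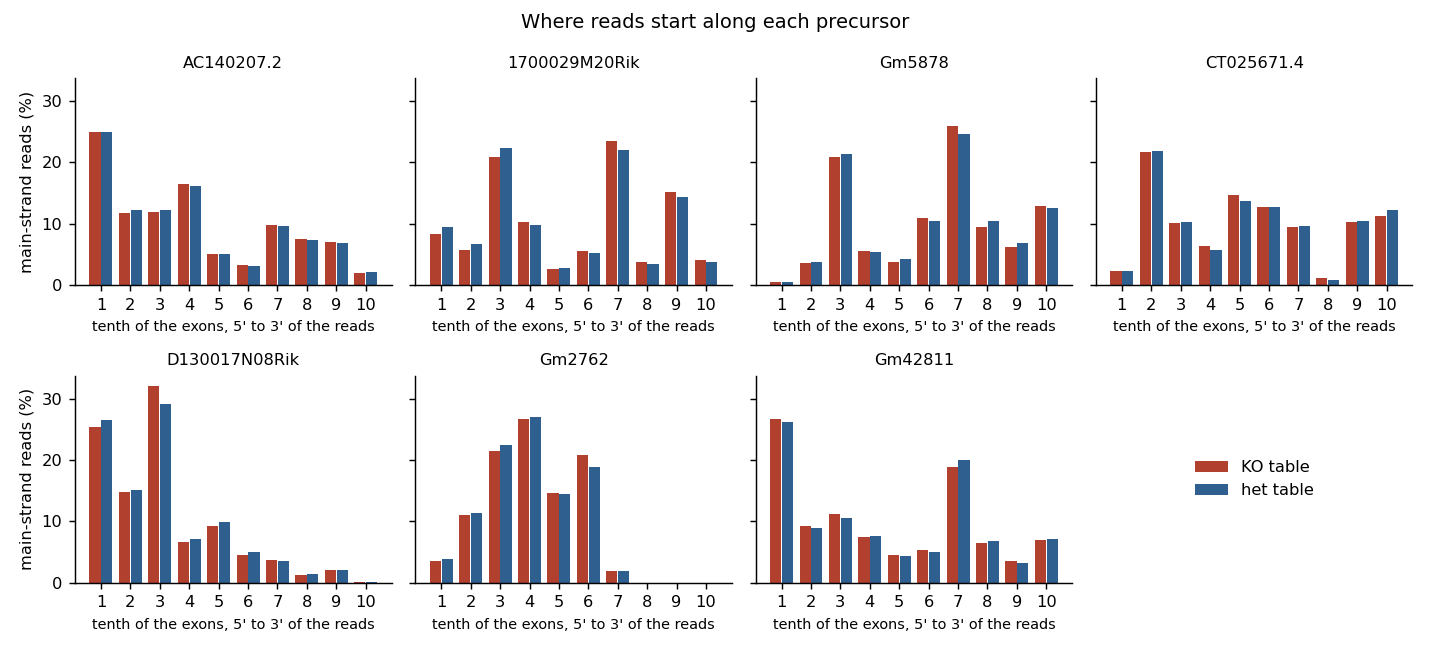
Share of the main-strand reads of each precursor that start in each of 10 equal parts of its exons, in percent, running in the 5′ to 3′ direction of the reads, with red bars for the KO and blue bars for the het table. The red and blue bars are of nearly equal height throughout, and most panels hold 1 or 2 tall parts, such as part 3 of D130017N08Rik with 32.1% in the KO against 29.2% in the het table.

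Reads were not spread evenly along the transcripts, and few reads spanned a splice junction. At Gm2762 the block at chr13:53400270-53402934 held 89.3% of reads, while the last 4 blocks, from position 53432446 on, held 0 to 11 reads each in the KO and 2 to 28 in the het table. At Gm5878 99.4% came from the last exon (chr6:85111416-85115434), and at CT025671.4 97.6% from the first annotated exon (chr17:66193352-66196338). At 1700029M20Rik the last exon (chr4:135627756-135630198) held 85.4% and the first (chr4:135626655-135627045) 14.5%, at 69.3 and 73.6 reads per base. D130017N08Rik was the most divided, with 26.01% in its first block, 63.96% in its block 3 and 10.02% in its last. Reads across a splice junction made up between 0.00186% at CT025671.4 and 0.628% at Gm2762 of the reads of the loci with several exons. The junction at CT025671.4 is that of the annotated gene, on the other strand than the reads. Unspliced or intronic sequence was not analysed here.

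Along the reads' own direction, the first of the 10 parts held 26.01% of reads at D130017N08Rik and 26.5% at Gm42811, and at AC140207.2 it held 25.01% in the KO and 24.99% in the het table. It held 0.476% at Gm5878, 2.31% at CT025671.4, 3.71% at Gm2762 and 8.90% at 1700029M20Rik. The fullest was part 7 at Gm5878 (25.3%) and at 1700029M20Rik (22.7%), part 4 at Gm2762 (26.8%), part 3 at D130017N08Rik (30.6%) and part 2 at CT025671.4 (21.8%). At Gm2762 the last 3 parts held 0.00132 to 0.00396% each. At CT025671.4 and Gm42811 the parts are those of the annotated exons and need not cover the whole RNA read there.

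Reads of the weaker strand were few. With the tables summed there were 9978 at AC140207.2, 658 at Gm42811, 323 at CT025671.4, 46 at 1700029M20Rik, 26.03 at D130017N08Rik, 14 at Gm2762 and 1 at Gm5878, where reads with several places count by their share. At AC140207.2 48.7% of them had 1 place, while 5.04% of the main-strand reads had several, and 48.9% of them lay in the first of the 10 parts and 31.4% in part 5. Weaker-strand reads had a first U in 65.4% of cases at AC140207.2, 45.7% at CT025671.4 and 36.5% at Gm42811. They had A at position 10 in 53.2%, 80.2% and 79.4% of cases in the same order, beside 37.1%, 29.7% and 24.8% of all reads of these loci.

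At the 3 loci with most such reads the most frequent overlap of opposite reads, of those from 1 to 20 nt, was 10 nt. It made up 39.6% of overlaps at CT025671.4, 25.5% at Gm42811 and 23.9% at AC140207.2, weighted by reads. With each pair of positions counted once it was 122 of 1837 pairs at CT025671.4, 188 of 2854 at Gm42811 and 626 of 9375 at AC140207.2. These counts are little above 1 in 20, the share that an even spread over the 20 overlaps would give. The shares weighted by reads thus rest on the pairs of positions with many reads. They were alike in both tables, for example 39.5% in the KO and 39.8% in the het table at CT025671.4. Among the larger precursors the overlap of 10 nt was also the most frequent at Gm49794, with 49.4%, and at Gm21269, with 33.8%. At 1700029M20Rik, with its 46 weaker-strand reads, it made up 36.5% of overlaps, or 18 of 291 pairs of positions. At D130017N08Rik the tables differed on 15.1 and 10.95 weaker-strand reads. These are summed shares of 238 distinct sequences, and with the tables summed only 15.4% of them had 1 place, so most cannot be assigned to this locus. The overlap of 10 nt made up 7.50% of overlaps in the KO table, where 1 nt was the most frequent, and 27.6% in the het table, where 10 nt was. Gm5878 and Gm2762, with 1 and 14 reads of the weaker strand, had too few for such a share.

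A pair of opposite reads from each of the 2 loci read on the unannotated strand shows this overlap. Capitals mark the first 10 bases, which are complementary between the partners.
CT025671.4, main strand: TACCAAATGAggaatgagaggtgtc
CT025671.4, other strand: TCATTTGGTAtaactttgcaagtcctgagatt
Gm42811, main strand: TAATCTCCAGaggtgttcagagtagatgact
Gm42811, other strand: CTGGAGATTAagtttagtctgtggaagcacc
The first pair lies at chr17:66199703-66199727 (minus) and chr17:66199718-66199749 (plus), and the second at chr6:127810380-127810410 (plus) and chr6:127810359-127810389 (minus), in GRCm38. The main-strand read of CT025671.4 had 6 KO and 5 het reads and its partner 8 and 7. At Gm42811 the main-strand read had 15 and 6 reads and its partner 6 and 11. The weaker-strand partner was thus about as rare as the read it pairs with, and neither is among the abundant reads of its locus.

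Behind the 3′ end of a read, the next base of the transcript was U more often than elsewhere at 4 loci and less often at 3. It was U after 20.1% of reads at AC140207.2, 23.6% at CT025671.4, 23.9% at Gm42811, 27.1% at 1700029M20Rik, 28.3% at Gm5878, 28.4% at Gm2762 and 32.97% at D130017N08Rik, where U makes up 25.02%, 24.6%, 28.8%, 26.7%, 26.8%, 25.2% and 28.2% of bases. A read starting right behind the end of another, the mark of piRNAs cut end to end, was 1.65 times as frequent as the mean of distances of 2 to 50 nt at D130017N08Rik and 1.495 times at 1700029M20Rik. It was 1.003 times as frequent at Gm42811, 0.88 at AC140207.2, 0.61 at Gm2762, 0.48 at Gm5878 and 0.30 at CT025671.4. With each pair of positions counted once, the ratio was between 0.99 and 1.05 at all 7, so values away from 1 rest on few abundant reads.

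Many further reads matched these loci except at their last base. Such reads, exact up to the last base and different there, made up 17.6% (17.4 to 17.8) of the exact and such reads together at 1700029M20Rik in the KO and 17.3% (17.1 to 17.5) in the het table. The share was 14.4% and 15.0% at Gm2762, 13.3% and 13.4% at CT025671.4, 11.7% and 11.8% at Gm42811, 11.3% and 11.2% at Gm5878, 10.9% and 11.3% at AC140207.2, and 9.004% and 9.21% at D130017N08Rik. The larger precursors had 11.6 to 12.1% in the KO and 11.7 to 12.2% in the het table. In reads of the same length from snoRNA genes the share was 1.12% and 1.11%, and in those from mitochondrial rRNA and tRNA genes 1.64% and 1.47%. These reads are not part of any count above. The comparison was chosen after the values of the 7 loci were seen. A differing base beyond the annotated 3′ end of a gene was not counted. This can lower the share for short genes, such as those of snoRNAs and tRNAs.

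The base in place was U in 89.5% (D130017N08Rik) to 92.7% (1700029M20Rik and Gm2762) of such reads at the 7 loci. For snoRNA genes it was U in 30.7% and A in 61.5%, and for the mitochondrial genes U in 14.9% and A in 62.1%. Inner positions of reads from the 7 loci differed from the transcript far less, in 0.131 to 0.437% of reads per position in the KO and 0.118 to 0.394% in the het table. The linker given in the labels begins with T, so that a linker base kept at the end of a read would also read as U. The part of the linker was not tested.

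**Figure D5:**
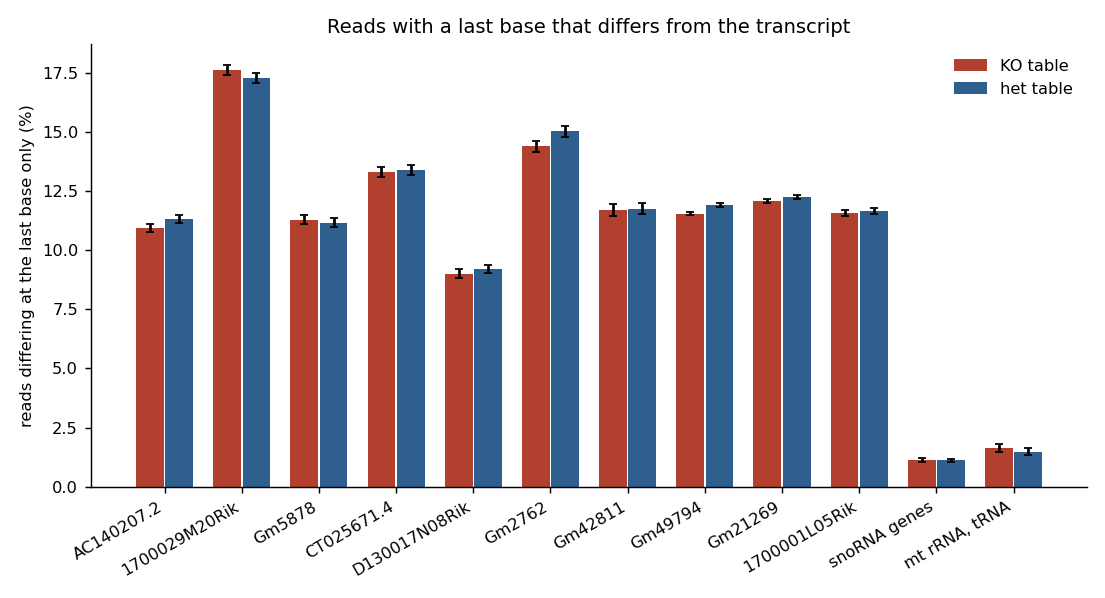
Reads that match a locus up to the last base and differ there, in percent of these and the exact reads together, for the 7 precursors, 3 larger precursors and 2 sets of other small RNA genes, with red bars for the KO and blue bars for the het table and exact 95% intervals. The precursors stand between 9.004 and 17.6% in the KO table, and the snoRNA and mitochondrial (mt) genes at 1.12% and 1.64%.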

How the data were processed

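The deposited tables list each distinct read sequence with its raw count, not scaled by the authors as the values show (whole numbers, reads of 18 to 32 nt). Per the labels' protocols, a 15% gel of 20 µg total RNA served to purify RNA of 15 to 40 nt for TruSeq Small RNA libraries. The sources used here do not name tools for adapter trimming or filtering. Every sequence was matched with 0 mismatches to GENCODE M21 transcripts with bwa 0.7.19 on both strands and projected to GRCm38, which was also checked by string search for the 7 loci. A place is a distinct start position and strand. Reads with several places counted by 1 over their number, and 102 sequences with over 2000 matches were left out. RPM are per 1000000 reads of the table. Log2 ratios add 0.5 reads to each count, with conditional binomial intervals at 95%, and shares carry Clopper-Pearson intervals. The calculation of ratios was tested on simulated data. Python 3.11.15, numpy 2.4.6, scipy 1.17.1 and matplotlib 3.10.9 were used.

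The 7 loci, the gene and marker lists and the comparisons were chosen with earlier results of these data known. Named are all 7 loci, the larger precursors and other piRNA sources of the earlier work, overlapping or divergent genes, and the gene nearest in length profile. Gm18009, the snoRNA and mitochondrial sets and the genes next to the list in rank were added after values were seen. The printed reads were planned as sense reads, and the main-strand read is given for CT025671.4 and Gm42811, whose reads are antisense. Alternatives were other ways to count reads with several places, other lengths, scalings and minimums, distinct sequences, 1 strand alone and leaving out the most used start.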

Additional observations from a re-analysis of the deposited data

Results flagged for a closer look

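Reads of 18 to 23 nt from the 7 loci lie outside the 24 to 32 nt measured above. They came to 308 RPM in the KO and 309 RPM in the het table, above the level of 3 reads, 0.0552 and 0.0478 RPM, and were noted for that reason. Per locus they made up 1.44% (Gm5878) to 3.60% (AC140207.2) of the 18 to 32 nt reads in the KO table and 1.59% to 4.17% at the same loci in the het table. At 1700029M20Rik 87.5% of them began with U in the KO and 88.5% in the het table, and 99.9% of both together ran on the main strand. At AC140207.2 these shares were lower, with 64.4% and 61.6% for a first U and 74.0% on the main strand.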

How the results depend on the processing

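Counting each matching read in full gave the 7 loci 11298 RPM in the KO table and reads with 1 place alone 10817, against 10971. The median log2 ratio of 0.16 was 0.064 with distinct sequences, 0.18 with 29 to 31 nt reads and with sense reads alone, 0.071 with 24 to 32 nt reads as the total, and -0.092 with miRNA reads as the total. That last scaling reversed AC140207.2 (-0.12), 1700029M20Rik (-0.11), CT025671.4 (-0.12), D130017N08Rik (-0.039) and Gm42811 (-0.092) because it lowers all ratios alike, and Gm2762 and Gm5878 stayed above 0, with the highest at 0.08. Sense reads alone are the weaker strand at CT025671.4 and Gm42811. They put CT025671.4 at 0.18, which is that median itself, and reversed Gm42811 to -0.30.

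The median first-U share of 89.3% was 58.9% with distinct sequences, 90.7% at 29 to 31 nt, 88.0% without the most used start and 88.2% with sense reads. That last median includes the weaker strand of CT025671.4 (45.7%) and Gm42811 (36.5%). The median share with A at position 10, 33.1%, became 27.4%, 32.6% and, in reads without a first U, 39.4%, the first with distinct sequences and the second at 29 to 31 nt. Reads counted in full moved the median mean length to 28.62 nt against 28.67 nt, the median sense share to 97.1% and the median effective number of starts to 61.3 against 59.4. The sense share was 99.58% with distinct sequences and 99.97% at 29 to 31 nt, against 99.98%. The 1683 starts expected at equal reads measure another quantity. Genes past a log2 ratio of 1 numbered 73 of 11184 with a minimum of 50 reads (43 higher, 30 lower in the KO table), against 16 (1 and 15). The cause of these shifts was not tested. Of 259 recomputed values of single loci, 126 stayed within a set margin, 127 moved further and 6 reversed. The margin was the counting interval, or a small fixed one for mean length and the effective number of starts. Starts expected at equal reads were always counted as moved.

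With 1 library per table there was no replicate to leave out, and variation between animals, batch and table cannot be told apart. No paired analysis was possible because there are no replicates. Unannotated sequence, introns and reads over 32 nt were not analysed here.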
